A study of Homo sapiens with 18 samples.

Results

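The HSP70 and HSP110 family was followed through 9 genes, namely HSPA6, HSPA1B, HSPA8, HSPH1, HSPA4, HSPA4L, HSPA13, HSPA9 and HSPA14, which were taken by symbol from the 43735 rows of the raw count table. The libraries came from MM1S, a human multiple myeloma line that responds to glucocorticoids, and from MM1R, the glucocorticoid-resistant line of the same origin. In each line, 3 libraries came from untreated cells, 3 from cells exposed to 5 µM RSL3 for 3 h, and 3 from cells that received 2 µM Fer-1 during 2 h ahead of the same RSL3 exposure. RSL3 inhibits GPX4, the enzyme that detoxifies lipid peroxides and whose loss leads to ferroptosis, and Fer-1 (ferrostatin-1) traps lipid radicals. Replicates 1, 2 and 3 were passages P4, P6 and P7 of MM1R cells and P16, P22 and P23 of MM1S cells. Where all libraries were fitted in 1 model, each p-value rests on the spread between passages within groups, pooled over both lines and all treatments. The spread of a group therefore also enters comparisons that do not include it. No group received Fer-1 without RSL3. Both lines descend from the same patient's myeloma, and the difference between them cannot be told apart from that between the passage numbers at which they were grown.

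HSP70 proteins bind exposed hydrophobic stretches of unfolded polypeptides and release them in a cycle driven by ATP. J-domain proteins (the DNAJ family) deliver clients and stimulate hydrolysis of ATP, and exchange factors, among them the HSP110 proteins, remove ADP so that the client is let go. The inducible HSP70 genes are classical targets of the heat shock factor HSF1, which is activated when unfolded proteins draw chaperones away from it, and myeloma cells, which secrete large amounts of immunoglobulin, depend strongly on protein quality control.

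The members differ in place and task. HSPA6 (chr1:161494330-161496684, plus strand, positions of hg19 throughout unless stated) is a strictly stress-inducible cytosolic HSP70 with a single exon, and HSPA1B (chr6:31795515-31798031, plus strand), also of 1 exon, is a major stress-inducible HSP70. HSPA8 (chr11:122928197-122933938, minus strand) encodes HSC70, the constitutive cytosolic HSP70. HSPH1 (chr13:31709110-31736525, minus strand), HSPA4 (chr5:132387705-132442141, plus strand) and HSPA4L (chr4:128702976-128761888, plus strand) encode the HSP110 proteins, which act as exchange factors for cytosolic HSP70. HSPA13 (chr21:15743436-15755805, minus strand) encodes a microsome-associated HSP70 that lacks the client-binding domain, HSPA9 (chr5:137889445-137911364, minus strand) encodes mortalin, the HSP70 of the mitochondrial matrix, and HSPA14 (chr10:14880305-14913740, plus strand) encodes an HSP70 that associates with ribosomes.

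Heat shock elements are the inverted repeats of GAA that HSF1 binds. The letters upstream of the start sites show in which members exact matches to them lie close to the gene. The 250 bases before the start site of 5 members are printed 5′ to 3′ on the strand of the gene, from RefSeq on GRCh38.p14, with capitals on every match to GAANNTTC or TTCNNGAA, each of which reads the same on both strands. Where a pair of such matches overlaps, the capitals form a 3-unit element, TTCNNGAANNTTC or its reverse complement GAANNTTCNNGAA. HSPA6 (chr1:161524290-161524539, plus strand), HSPA8 (chr11:123062137-123062386, minus strand) and HSPA1B (chr6:31827488-31827737, plus strand) are shown because they hold such matches, and HSPH1 (chr13:31162389-31162638, minus strand) and HSPA13 (chr21:14383147-14383396, minus strand) because they were called higher in at least 1 line and hold none in this window.
HSPA6: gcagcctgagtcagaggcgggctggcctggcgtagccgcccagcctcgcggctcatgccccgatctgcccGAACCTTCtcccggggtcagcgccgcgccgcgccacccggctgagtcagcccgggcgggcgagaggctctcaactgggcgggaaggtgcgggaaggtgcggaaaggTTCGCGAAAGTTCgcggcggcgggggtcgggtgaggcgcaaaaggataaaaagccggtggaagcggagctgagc
HSPA8: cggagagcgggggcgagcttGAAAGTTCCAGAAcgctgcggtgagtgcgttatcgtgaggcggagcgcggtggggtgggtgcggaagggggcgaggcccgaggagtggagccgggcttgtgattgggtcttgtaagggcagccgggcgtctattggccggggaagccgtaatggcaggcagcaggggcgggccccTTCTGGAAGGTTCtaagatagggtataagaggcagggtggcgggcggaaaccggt
HSPA1B: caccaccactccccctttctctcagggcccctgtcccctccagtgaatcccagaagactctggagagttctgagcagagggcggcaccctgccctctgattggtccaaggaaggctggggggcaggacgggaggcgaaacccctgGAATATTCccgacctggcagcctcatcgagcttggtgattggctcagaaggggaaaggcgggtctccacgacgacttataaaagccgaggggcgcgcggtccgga
HSPH1: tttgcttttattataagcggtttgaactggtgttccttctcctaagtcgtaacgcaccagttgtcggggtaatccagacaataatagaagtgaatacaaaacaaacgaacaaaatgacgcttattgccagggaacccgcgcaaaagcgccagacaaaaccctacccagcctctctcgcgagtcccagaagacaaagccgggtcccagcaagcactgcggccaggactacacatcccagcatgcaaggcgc
HSPA13: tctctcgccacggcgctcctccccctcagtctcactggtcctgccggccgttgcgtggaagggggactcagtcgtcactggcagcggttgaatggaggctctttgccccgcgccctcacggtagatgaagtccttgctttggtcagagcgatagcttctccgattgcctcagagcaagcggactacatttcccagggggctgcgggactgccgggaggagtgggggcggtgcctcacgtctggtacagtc
The 3-unit element occurred once in the HSPA6 window, at bases -74 to -62 from the start site, and 2 times in the HSPA8 window, at -230 to -218 and at -55 to -43. It was present in 0.441% of the 35116 RefSeq windows of the same length. HSPA6 held a separate 2-unit match at -180 to -173 and HSPA1B a single one at -105 to -98, and 2-unit matches, which include those inside a 3-unit element, were present in 11.6% of all windows. Of the other members, the windows of HSPA4 and HSPA9 held none and 1 of the 3 HSPA4L windows held a 2-unit match. HSPA14 had no entry among the promoter windows, so it was not examined. These are matches of letters, not sites shown to be bound. Only exact matches within 250 bases were sought, so a window without one can still hold an imperfect element, or the gene a more distant one.

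Depth was even, with 17635438 to 19368343 counts per library. After the low-count filter, 14281 genes were tested, with 8 of the 9 members among them. The row named HSPA1B failed the filter. Levels are CPM, the count per 1000000 counts of the TMM-scaled library. A gene was called where its FDR, the Benjamini-Hochberg adjusted p of the quasi-likelihood test in edgeR, fell below 0.05 with a change of more than 1 on the log2 scale. All 8 plasma cell markers were expressed in every library (41 to 1648 CPM per gene), while the summed level of 4 T and NK cell markers stayed at 3.42 to 11.8 CPM and that of 4 myeloid markers at 0.116 to 1.35 CPM. The summed level of 4 stromal and epithelial markers (COL1A1, COL1A2, EPCAM and KRT8) was 0.94 to 4.61 CPM in 17 libraries and 21.1 CPM in MM1S RSL3 replicate 1, where the collagen gene COL1A1 had 297 counts and the other collagen gene, COL1A2, had 1. A library that stood apart from its group was MM1R Fer-1 + RSL3 replicate 2. It had 50.2 CPM of the glucocorticoid receptor gene NR3C1 against 16.9 and 15.3 CPM in the others of its group. Over 8 genes with MM1S levels at least 8 times those of MM1R, its position between the lines was also taken. By the median gene it lay 49.3% of the way from the MM1R median level to the MM1S median level. The same measure, taken over 25 or 26 genes in the direction of MM1R, was 7.33 to 10.9% in the 3 libraries of MM1S passage P16. MM1S RSL3 replicate 1, of that passage, also carried the most NR3C1 (391 CPM).

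RSL3 raised HSPA6, HSPA8 and HSPA13 in both lines. Of the 8 members tested, 3 were called higher in MM1R cells (HSPA6, HSPA8 and HSPA13), against a background of 1.06% of all tested genes, and 4 in MM1S cells (the same with HSPH1), against 1.35%. No member was called lower. The same 4 were called in the average over both lines, against 2.79%. The median log2 fold change of the members was 0.83 in MM1R cells and 0.77 in MM1S cells, beside 0.00 and 0.00 over all tested genes. The RSL3 libraries lay wholly above the untreated libraries for 4 members in MM1R cells, where 13.5% of tested genes did so, and for 6 members in MM1S cells, where 12.6% did. Fitted with the 6 libraries of its own comparison alone, MM1R had 4 members called and MM1S had 0, where the FDR of the 4 members was 0.155 to 0.232 at nearly the same fold changes. The share of all genes called in these smaller fits is not given here, so these counts cannot be read as results about the members. RNA of whole cultures was measured, so a larger share of responding cells and more RNA per cell cannot be told apart.

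**Figure D1:**
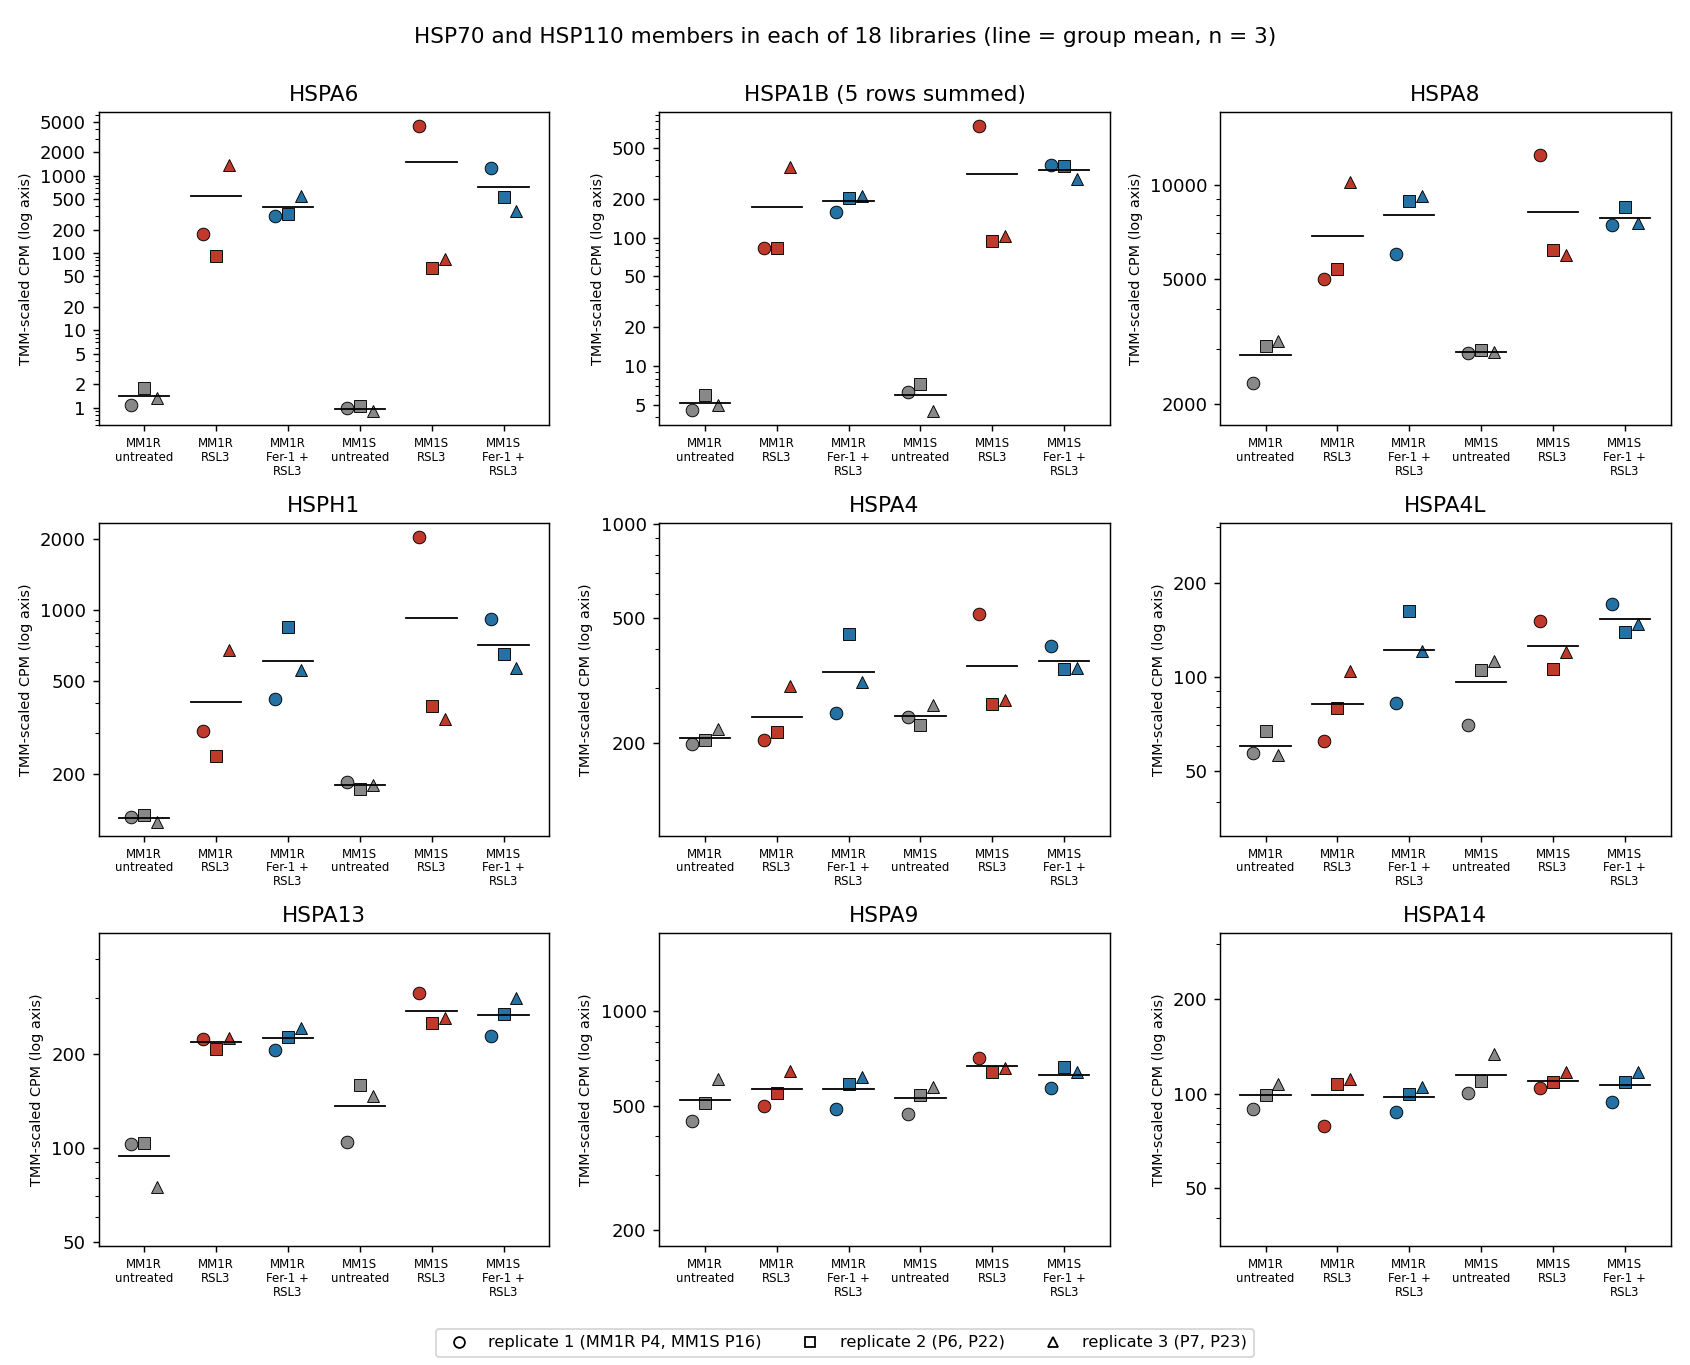
TMM-scaled CPM (log axes) of 8 members and of the 5 HSPA1B rows summed, in each of the 18 libraries, with symbols for the replicate (passage), colours for the treatment and a line at the group mean (n = 3). HSPA6 stood at 0.903 to 1.8 CPM in the untreated libraries and at 64.5 to 4316 CPM in the treated ones, whereas HSPA14 overlapped in all groups.

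HSPA6 rose from near silence. In untreated MM1R cells, its level in replicates 1, 2 and 3 was 1.09, 1.8 and 1.33 CPM, and after RSL3 it was 175, 92.4 and 1385 CPM. In MM1S cells, the values were 0.984, 1.04 and 0.903 CPM without treatment and 4316, 64.5 and 82.7 CPM after RSL3. The groups did not overlap in either line, but the RSL3 libraries differed widely, with MM1R replicate 3 (P7) and MM1S replicate 1 (P16) far above the others. The log2 fold change was 8.61 in MM1R cells (SE 1.66, FDR = 0.0105) and 10.56 in MM1S cells (SE 1.78, FDR = 0.00541). Without MM1S RSL3 replicate 1 the latter was 6.23 (FDR = 0.00648), and without MM1R RSL3 replicate 3 the former was 6.57 (FDR = 0.0336), so both stayed called while the size fell. The MM1R call was lost when any 1 of the 3 untreated MM1R libraries was left out, at a log2 fold change of 8.45 to 8.83 and an FDR of 0.0547 to 0.063.

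HSPA7 (chr1:161576081-161578007), annotated as an unprocessed pseudogene on the same chromosome and closely similar to HSPA6, had at most 1 count in each untreated library and 26, 21 and 220 counts in the RSL3 libraries of MM1R, and 688, 9 and 13 in those of MM1S. Across the 12 treated libraries its count was 0.73 to 1.23% of the HSPA6 count. How reads shared by the pair were assigned is not given in the sources used here, so its level is uncertain.

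HSPA8, by far the most abundant member, rose as well. Its values in MM1R replicates 1, 2 and 3 were 2335, 3066 and 3179.5 CPM without treatment and 5016, 5381 and 10232 CPM with RSL3. In MM1S cells they were 2897, 2959.7 and 2931 CPM and 12444, 6168 and 5961 CPM. All RSL3 libraries lay above all untreated libraries of both lines, and the largest rises were again those of P7 and P16. The rise was 2.4-fold in MM1R cells (log2 fold change 1.27, SE 0.28, FDR = 0.0234) and 2.8-fold in MM1S cells (1.48, SE 0.29, FDR = 0.0112). In MM1R cells the call was lost without RSL3 replicate 3, at a log2 fold change of 0.87 (FDR = 0.103), and without any 1 of the untreated libraries, at 1.14 to 1.35 (FDR 0.0619 to 0.0985). In MM1S cells it held without RSL3 replicate 1, at 1.06 (FDR = 0.0419), and was lost without untreated replicate 1, at 1.47 (FDR = 0.0576).

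The reads of HSPA1B were spread over 5 rows, HSPA1B and HSPA1B_1 to HSPA1B_4, and the row with the plain symbol held almost none of them. That row had 0 or 1 count in the untreated libraries, 2, 1 and 11 counts in MM1R and 9, 0 and 3 in MM1S after RSL3, at or near the floor of 3 counts taken per library, so no fold is given for it. That floor covers counting error only, since no molecular identifiers are described. The row HSPA1B_2 had 66, 66 and 63 counts in untreated MM1R cells and 1045, 1091 and 4276 after RSL3. In MM1S cells it had 80, 98 and 56 and 7995, 1251 and 1361 counts. It held 70% of all HSPA1B counts, HSPA1B_1 held 24.5% and HSPA1B_4 held 5.32%, and in the treated libraries the share of HSPA1B_2 stayed between 67.4 and 71.8%. The meaning of the suffix is not given in the sources used here. The raw table has 4743 rows with such a suffix, and of the 3453 whose base symbol is annotated on hg19, 1281 (37.1%) start in the major histocompatibility region of chromosome 6, where HSPA1B lies. The near-identical neighbour HSPA1A (chr6:31783320-31785723, plus strand) had at most 4 counts in any of its 5 rows. Reads common to both genes cannot be told apart, so the level is read as that of the pair.

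**Figure D2:**
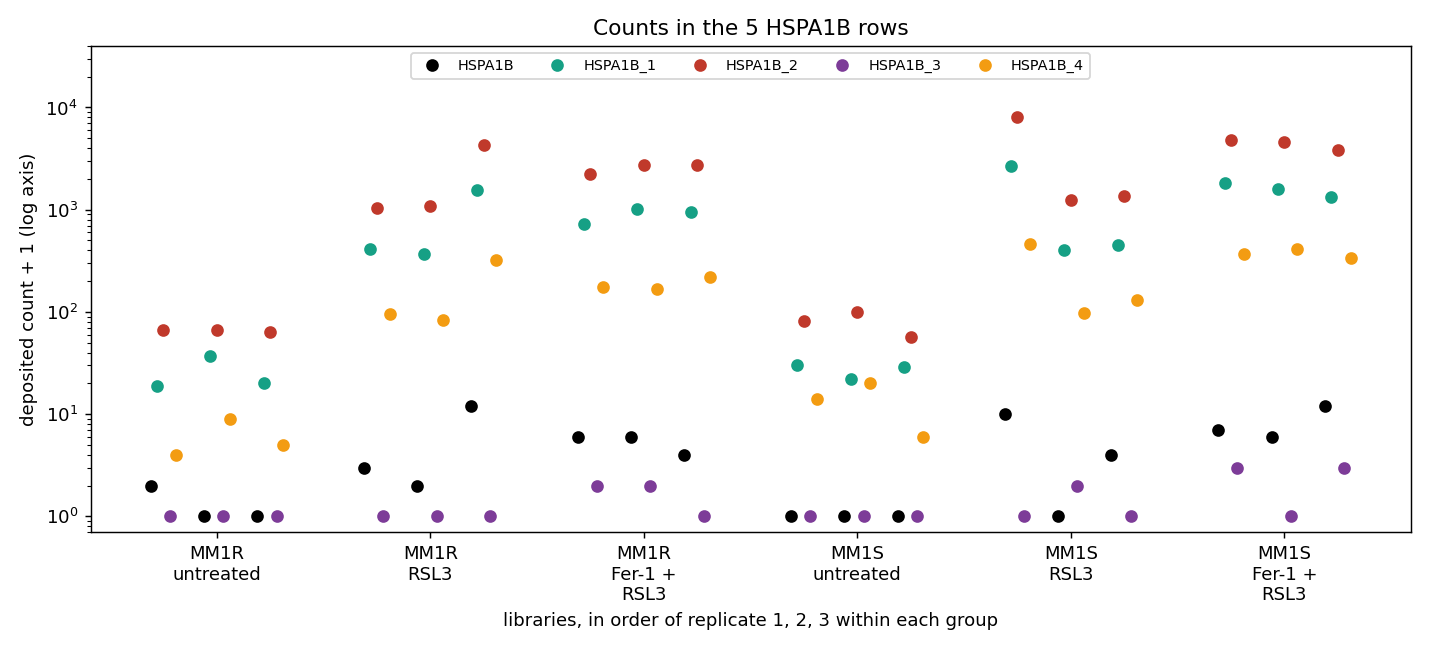
Deposited count plus 1 (log axis) in the 5 rows named HSPA1B, for the 18 libraries in order of replicate within each group. HSPA1B_2, HSPA1B_1 and HSPA1B_4 moved in parallel from the untreated to the treated libraries, and the plain HSPA1B row stayed at 0 to 11 counts.

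Summed over the 5 rows, a step added after the data had been seen, HSPA1B was at 4.57, 5.99 and 4.98 CPM in untreated MM1R cells and at 83.3, 83.6 and 351 CPM after RSL3. In MM1S cells it was at 6.32, 7.21 and 4.46 CPM and 731, 93.4 and 104 CPM. The groups did not overlap, and the same passages, P7 and P16, were highest. The rise was 33.3-fold in MM1R cells (log2 fold change 5.06, SE 0.76, FDR = 0.00414) and 51.6-fold in MM1S cells (5.69, SE 0.78, FDR = 0.0019). Without MM1S RSL3 replicate 1 the MM1S value was 4.04 (FDR = 0.000666), and without MM1R RSL3 replicate 3 the MM1R value was 4.01 (FDR = 0.0138), so the fold was smaller in both and the calls held. With this sum in place of the plain row, 4 of 9 members were called in MM1R cells and 5 of 9 in MM1S cells. In the fit without the sum, 1.06% and 1.35% of all tested genes were called higher. The added member is the sum itself, made after its rows had been seen, so the larger counts say nothing further about the family.

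Among the HSP110 genes, HSPH1 moved most. HSPH1 stood at 132, 134 and 126 CPM in untreated MM1R cells and at 304, 238 and 673 CPM after RSL3. In MM1S cells it stood at 186, 173 and 181 CPM and at 2041, 390.1 and 343 CPM. The groups did not overlap in either line. It was called in MM1S cells, with a log2 fold change of 2.36 (SE 0.54, FDR = 0.0244), but missed the FDR threshold in MM1R cells, at 1.64 (SE 0.53, FDR = 0.102). With the passage as a block the MM1R value was 1.55 and passed (FDR = 0.0376), as it did without MM1S RSL3 replicate 1 (FDR = 0.00335). In MM1S cells the value fell to 1.03 without RSL3 replicate 1 and missed the threshold (FDR = 0.164), and it also missed it without any 1 of the untreated libraries, at 2.34 to 2.38 (FDR 0.0874 to 0.107).

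The other HSP110 genes were not called after RSL3. HSPA4 was at 198, 204 and 222 CPM in untreated MM1R cells and 205, 217 and 304 CPM after RSL3, and at 242, 228 and 264 CPM and 515, 267 and 274 CPM in MM1S cells. The groups overlapped in MM1R cells and only just separated in MM1S cells. The log2 fold change of HSPA4 was 0.22 (95% interval -0.28 to 0.71, FDR = 0.695) and 0.52 (0.03 to 1.02, FDR = 0.231). For HSPA4L, the corresponding values were 0.44 (-0.05 to 0.94, FDR = 0.332) and 0.38 (-0.11 to 0.87, FDR = 0.391). Both genes were above their untreated library in all 6 passages, by as little as 0.00 on the log2 scale for HSPA4L at P22.

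HSPA13 was the other member called in both lines, by about the same fold in each. It was at 103, 104 and 75.1 CPM in untreated MM1R cells and 223, 207 and 225 CPM after RSL3, and at 104, 159 and 146 CPM and 313, 251 and 259 CPM in MM1S cells. The groups did not overlap, and the RSL3 libraries of MM1R lay within a narrow range. The log2 fold change was 1.22 in MM1R cells (SE 0.16, FDR = 0.00214) and 1.01 in MM1S cells (SE 0.16, FDR = 0.00406). The MM1S value lay at the fold limit and fell below it without RSL3 replicate 1 (0.91) or untreated replicate 1 (0.84), with the FDR still under 0.05. It also fell just short of the limit in DESeq2 and without the low-count filter (0.99).

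The mitochondrial and ribosome-associated members moved little. HSPA9 had means of 522 ± 81.9 and 564 ± 74.4 CPM (SD, n = 3) in untreated and RSL3-treated MM1R cells, and of 528 ± 53.6 and 669 ± 34.5 CPM in MM1S cells. Its log2 fold change was 0.11 (95% interval -0.17 to 0.39, FDR = 0.732) in MM1R and 0.34 (0.06 to 0.62, FDR = 0.173) in MM1S. With the passage as a block, the MM1S value of 0.35 had an FDR of 0.0196, still below the fold limit. HSPA14 had means of 98.7 ± 9.06 and 99.3 ± 17.6 CPM in MM1R cells and of 115 ± 17.2 and 110.1 ± 6.66 CPM in MM1S cells. Its log2 fold changes were 0.01 (-0.29 to 0.31) and -0.06 (-0.36 to 0.24), intervals that exclude a change as large as those of HSPA8 or HSPA13 in either direction.

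By passage, the size of the response was uneven for the inducible genes. The log2 CPM of HSPA6 rose above that of its own untreated library by 7.19 at P4, 5.60 at P6 and 9.91 at P7 of MM1R, and by 11.95 at P16, 5.81 at P22 and 6.36 at P23 of MM1S. For HSPH1 the differences were 1.21, 0.83 and 2.42 in MM1R and 3.46, 1.17 and 0.92 in MM1S. P7 and P16 gave the largest difference of their line for HSPA6, the summed HSPA1B rows, HSPA8, HSPH1, HSPA4, HSPA4L and HSPA13. The P16 library of RSL3-treated MM1S cells also had the lowest TMM factor (0.864, against 0.926 to 1.06 in the others), the highest NR3C1, the MM1R-like expression given above and the most COL1A1 (19.5 CPM, against 0.451 to 3.93 CPM in the other 17 libraries), and their part in the result was not tested. Counting the members' rows together, the family took 0.35 to 0.425% of all counts in untreated MM1R libraries and 0.677 to 1.3% after RSL3, and 0.424 to 0.447% and 0.799 to 1.84% in MM1S.

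**Figure D3:**
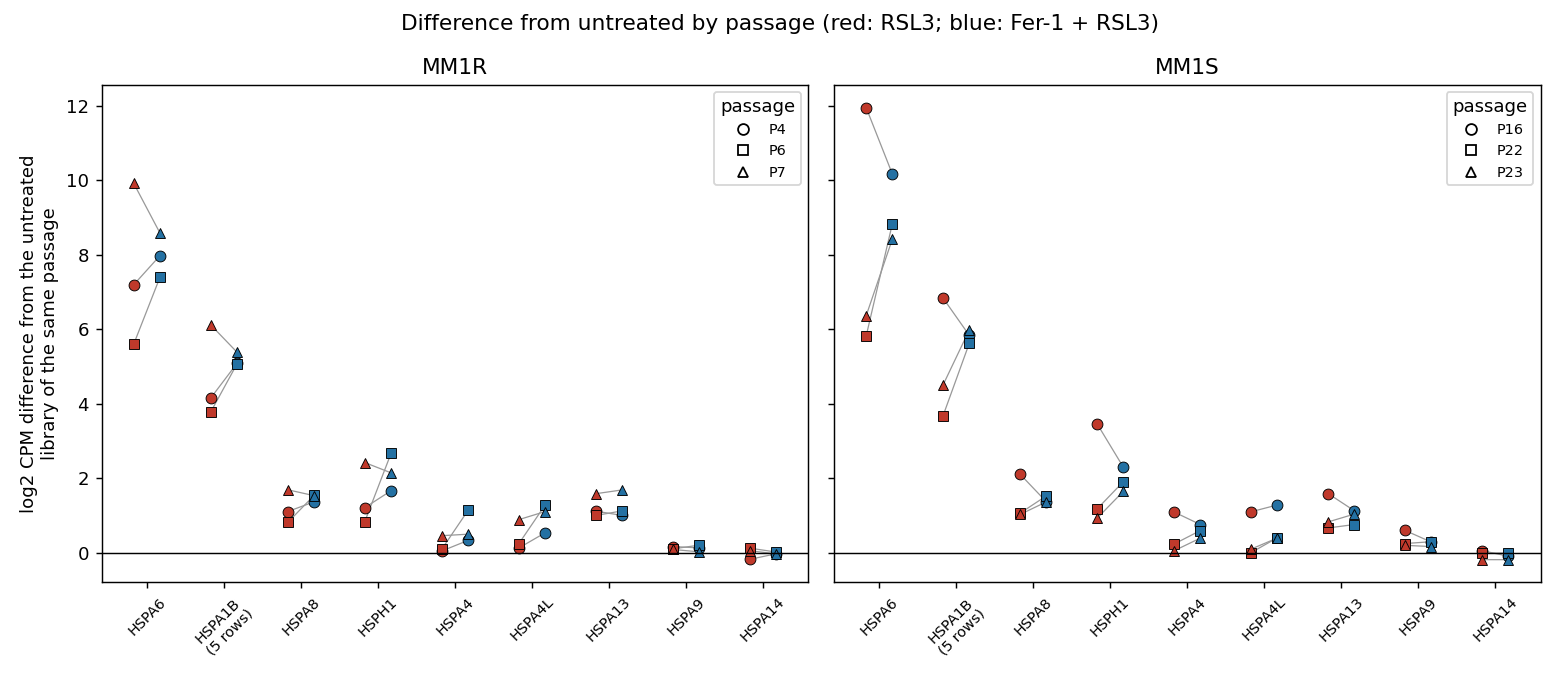
Difference in log2 CPM from the untreated library of the same passage, for RSL3 (red) and Fer-1 + RSL3 (blue), in MM1R (left) and MM1S (right) cells, with a line joining the libraries of a passage. At P7 and P16 the HSPA6 point fell from RSL3 to Fer-1 + RSL3, and in the other 4 passages it rose.

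The response to RSL3 did not differ detectably between the lines. The difference in log2 fold change (MM1R minus MM1S) was tested as an interaction and 0 of the 8 members were called by edgeR, as were 0 of all genes (0%), with 0 members at an unadjusted p under 0.05 and 0 by DESeq2. It was -0.22 for HSPA8 (95% interval -1.05 to 0.62) and -0.73 for HSPH1 (-2.27 to 0.82). For HSPA6 it was -1.95 (-6.51 to 2.60), an interval wide enough to hold large differences, and without the low-count filter HSPA6 passed. The interval of HSPA13, 0.21 (-0.27 to 0.68), was narrower. The sign of the first 3 changed on leaving out a single library. Without MM1S RSL3 replicate 1 the difference was 0.21 for HSPA8, 0.61 for HSPH1 and 2.38 for HSPA6, and without MM1R RSL3 replicate 3 it was -0.61, -1.29 and -3.97. For HSPA13 it was 0.07 to 0.37 over all libraries left out in turn.

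Fer-1 before RSL3 did not bring the family back to its untreated level. No member was called between Fer-1 + RSL3 and RSL3 alone in either line, where 0% of all tested genes were called in MM1R and 0% in MM1S, or in the average over both lines, where 0.056% were. DESeq2 called 0 members as well, and without the low-count filter edgeR called 1, HSPA6 in MM1S cells (-1.04, FDR = 1.17e-05). With the filter, 1 member, HSPA4L, had an unadjusted p under 0.05, in MM1R cells and in the average. Against untreated cells, 5 of the 8 members were called higher in MM1R cells (HSPA6, HSPA8, HSPH1, HSPA13 and HSPA4L), beside 1.75% of all tested genes, and 3 in MM1S cells (HSPA6, HSPA8 and HSPH1), beside 0.938%. In each line 6 members did not overlap between these groups (HSPA6, HSPA8, HSPA4, HSPA4L, HSPH1 and HSPA13), where 16.5% and 14.7% of tested genes were higher without overlap. Any 2 of these comparisons share a group of libraries (untreated, RSL3, or Fer-1 + RSL3), so their values are given side by side and are not independent.

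The inducible genes stayed high in every Fer-1 + RSL3 library. HSPA6 was at 301, 320.3 and 550.0 CPM in the MM1R libraries and reached 1255, 522 and 344 CPM in the MM1S ones, within the range of the RSL3 libraries and more even than those. The log2 fold change of HSPA6 against RSL3 alone was -0.50 in MM1R cells (95% interval -2.88 to 1.89) and -1.07 in MM1S cells (-3.47 to 1.33). The sign of these values rests on single libraries, as without MM1R RSL3 replicate 3 the first was 1.53 and without MM1S RSL3 replicate 1 the second was 3.26, and with the passage as a block they were 0.29 and 0.93. Against untreated cells HSPA6 was called in both lines (8.11, FDR = 0.00648, in MM1R and 9.49, FDR = 0.00463, in MM1S). The summed HSPA1B rows were at 158, 204 and 212 CPM in MM1R cells and 365, 360.1 and 288 CPM in MM1S cells, with log2 fold changes against RSL3 of 0.15 (-1.16 to 1.46) and 0.13 (-1.18 to 1.43), which were 1.18 without MM1R RSL3 replicate 3 and 1.77 without MM1S RSL3 replicate 1, neither called. Both genes were higher with Fer-1 + RSL3 than with RSL3 alone in 4 of 6 passages and lower at P7 and P16, the passages with the highest RSL3 values. HSPA8 and HSPH1 had the same signs by passage, with differences of -0.28 at P7 and -1.16 at P16 for HSPH1 and of 0.45 to 1.83 in the others.

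HSPA8 and HSPH1 also stayed high. HSPA8 was at 6002, 8887 and 9176 CPM in MM1R cells and 7461, 8502 and 7533 CPM in MM1S cells given Fer-1 and RSL3, and its log2 fold change against RSL3 was 0.22 (-0.37 to 0.81) and -0.06 (-0.66 to 0.53). Against untreated cells HSPA8 was called in both lines (1.49, FDR = 0.00507, and 1.42, FDR = 0.00874). The intervals of HSPA8 against RSL3 do not reach a fall of the size of the rise after RSL3. They are approximate and rest on the spread pooled over all groups, which is smaller in the untreated libraries than in the RSL3 ones. By passage, the difference from RSL3 ran from -0.74 at P16 to 0.72 at P6. HSPH1 was at 417, 847 and 556 CPM and 911, 648 and 565 CPM, with 0.58 (-0.51 to 1.68) and -0.38 (-1.48 to 0.71). Against untreated cells HSPH1 was called in both lines, at 2.22 in MM1R (FDR = 0.018) and 1.98 in MM1S (FDR = 0.0441), and missed the threshold in MM1R without Fer-1 + RSL3 replicate 2 (1.90, FDR = 0.0727), the library with MM1S-like expression, or without any 1 of the untreated libraries (2.19 to 2.23, FDR 0.0528 to 0.0673). The MM1S call was marginal, since leaving out any 1 of 12 of the 18 libraries ended it (FDR 0.0503 to 0.141).

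HSPA4L and HSPA4 reached their highest group means with Fer-1 and RSL3. HSPA4L was at 82.8, 163 and 121 CPM in MM1R cells and 171, 139 and 148 CPM in MM1S cells, above its RSL3 library in 6 of 6 passages. Against untreated cells HSPA4L was called in MM1R cells at 1.02 (SE 0.23, FDR = 0.0127), at the fold limit, and had 0.67 in MM1S cells (FDR = 0.113). Without MM1R Fer-1 + RSL3 replicate 2, which holds its highest value, the MM1R figure was 0.76 (FDR = 0.0774), and with the passage as a block it was 0.97 (FDR = 0.00546), just under the fold limit. It also fell short with RLE scaling, in DESeq2, in limma (0.95) and without untreated replicate 1 or 3 of MM1R (0.98 and 0.97). Against RSL3 alone it was 0.57 (0.08 to 1.07, FDR = 0.74) and 0.28 (-0.21 to 0.77). HSPA4 was at 249, 447 and 313 CPM and 408, 344 and 346 CPM, and its log2 fold change against untreated cells was 0.69 (FDR = 0.0766) and 0.58 (FDR = 0.181), or 0.43 in MM1R cells without the same library.

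HSPA13 differed little from RSL3 alone. It was at 206, 225 and 241 CPM in MM1R cells and 227, 267 and 299.9 CPM in MM1S cells, with log2 fold changes against RSL3 of 0.04 (-0.30 to 0.37) and -0.05 (-0.38 to 0.28), and of 1.26 (FDR = 0.000429) and 0.96 (FDR = 0.00269) against untreated cells. The MM1S value passed the FDR but not the fold limit. HSPA14 differed from RSL3 alone by -0.03 (-0.32 to 0.27) in MM1R cells and -0.05 (-0.34 to 0.25) in MM1S cells. HSPA9 differed by -0.10 (-0.38 to 0.19) in MM1S cells, and its interval in MM1R cells ran from -0.28 to 0.28.

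**Figure D4:**
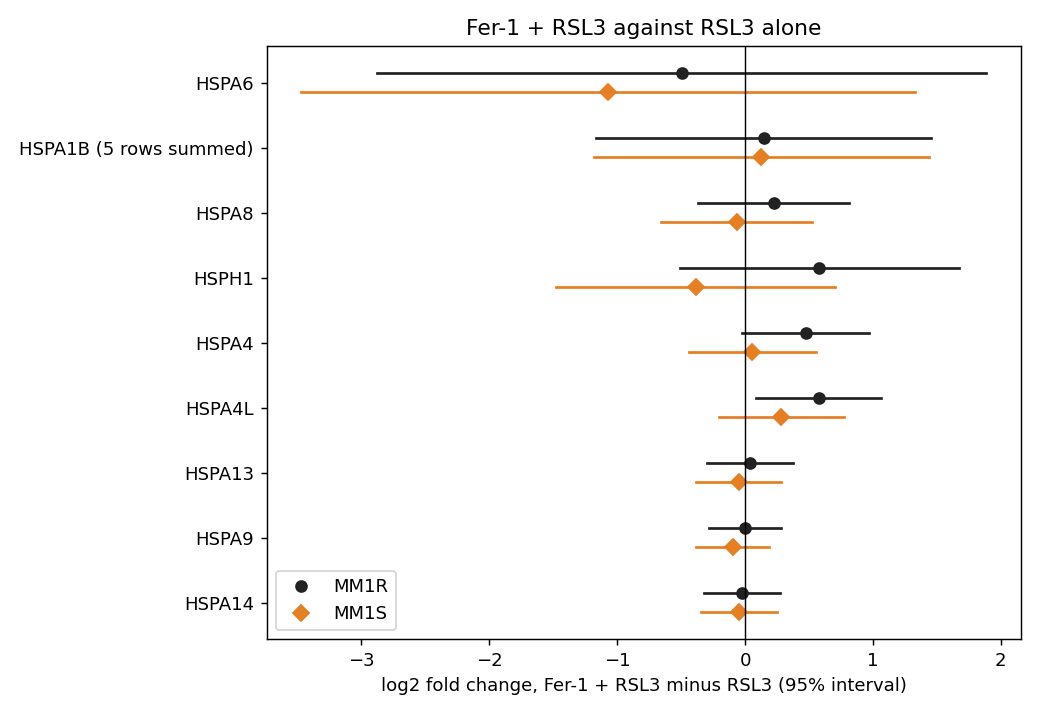
Log2 fold change of each member between Fer-1 + RSL3 and RSL3 alone, with its 95% interval, in MM1R (black) and MM1S (orange) cells. The intervals of HSPA13, HSPA9 and HSPA14 are short, that of HSPA6 in MM1S cells runs from -3.47 to 1.33, and the interval of HSPA4L in MM1R cells (0.08 to 1.07) lies above 0 before adjustment for multiple tests.

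No member was called between untreated MM1R and MM1S cells, where 4.64% of all tested genes were. Of the 8 members tested, 7 had the lower fitted level in MM1R cells. HSPA4, HSPA4L, HSPH1 and HSPA13 were lower in every untreated MM1R library than in any untreated MM1S one. They were 4 of 8 members, against 16.7% of all tested genes. HSPA6 was higher in every untreated MM1R library (1 of 8, against 15.6%), but only just. It had 21 counts (1.09 CPM) in MM1R replicate 1 and 20 counts (1.04 CPM) in MM1S replicate 2. Its log2 fold change was 0.52 (-3.36 to 4.40, FDR = 0.899), so no difference between the lines was resolved for HSPA6. HSPA13 was lower in MM1R cells by an FDR of 0.0399 but with a log2 fold change of -0.54, below the fold limit, and HSPA4L had -0.67 (FDR = 0.0773). HSPA8 differed by -0.03 (-0.63 to 0.56), a value whose sign changed without untreated MM1R replicate 1 (range -0.12 to 0.09 over single libraries left out).

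Per kilobase of the canonical transcript, HSPA8 led in all 6 groups. In untreated MM1R cells the mean CPM per kilobase was 1263 for HSPA8, 118 for HSPA9, 56 for HSPA14, 43.6 for HSPA4, 24.9 for HSPH1, 23.8 for HSPA13, 5.69 for HSPA4L, 2.06 for the summed HSPA1B rows and 0.597 for HSPA6. HSPH1 (24 to 25.5) and HSPA13 (19 to 26.3) overlapped and the other neighbours in this order did not. After RSL3, HSPA6 came next to HSPA8 among the members by its mean in MM1R cells, at 234 (range 39.2 to 588), but overlapped with every member other than HSPA8 and HSPA4L. HSPA5, an HSP70 gene outside the members, was at 420 in the same group. In MM1S cells given both agents, HSPA6 was at 300.2 (146 to 533) and HSPA1B at 134 (114 to 145), from 0.415 and 2.38 without treatment.

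The heat shock factors themselves and most partners did not follow. The genes tested were those of the factors HSF1, HSF2 and HSF4 and of the HSF1-binding protein HSBP1. Of these 4 genes, 0 were called in either line after RSL3, with a median log2 fold change of 0.01 and 0.16. HSF1 was at 5.4 ± 0.846 CPM in untreated and 5.65 ± 0.984 CPM in RSL3-treated MM1R cells (SD, n = 3), and HSF2 had log2 fold changes of -0.30 and -0.27 (FDR = 0.169 and 0.204). HSF4 had -0.05 and 0.26. Of 10 J-domain partners of cytosolic HSP70, 2 were called higher in MM1R and 4 in MM1S and 0 lower, with medians of 0.40 and 1.09. Of all tested genes, 1.06% and 1.35% were called higher in these comparisons. DNAJB1, the main stress-inducible HSP40, went from 161 ± 18.8 to 1863 ± 1762 CPM in MM1R cells and from 174 ± 23.4 to 3309 ± 4004 CPM in MM1S cells, and was called in both lines (3.53, FDR = 0.0136, and 4.25, FDR = 0.00654). DNAJB4 was called in both lines as well (2.55 and 2.84, FDR = 0.0395 and 0.0229). In MM1R cells both calls were lost without RSL3 replicate 3 (DNAJB1 2.40, FDR = 0.0663), and in MM1S cells that of DNAJB4 was lost without RSL3 replicate 1 (1.32, FDR = 0.176), whereas DNAJB1 was still called at 2.53 (FDR = 0.0125).

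Among the other J-domain genes, DNAJA4 reached 0.18 in MM1R and 4.99 in MM1S cells (SE 2.28 and 1.42, FDR = 0.98 and 0.0578). It was hardly counted without treatment, at 0.0544 to 0.311 CPM in MM1R and 0.261 to 0.362 CPM in MM1S cells. The MM1S value rests on 1 RSL3 library at 30.3 CPM, beside 0.747 and 0.852 CPM in the others. DNAJB2, which directs clients to the proteasome, had 1.10 (FDR = 0.0669) and 1.65 (FDR = 0.0118). DNAJA1 was the other one called in MM1S cells (1.31, FDR = 0.0255), and neither it (0.70) nor DNAJB2 (0.98) passed without MM1S RSL3 replicate 1. Of 9 exchange factors and other cytosolic partners, 1 was called in each line, beside 1.06% and 1.35% of all tested genes called higher. This was BAG3, which couples HSP70 to small heat shock proteins and autophagy. It went from 54.1 ± 3.77 to 299 ± 234 CPM in MM1R cells (2.47, FDR = 0.0376, lost without RSL3 replicate 3 at 1.61) and from 59.8 ± 5.18 to 779 ± 884 CPM in MM1S cells (3.70, FDR = 0.00654, and 2.17, FDR = 0.0109, without RSL3 replicate 1), while STIP1, the HSP70 and HSP90 linker, and ST13 were next, at 0.51 and 0.47 in MM1S cells, neither called. Of 7 partners of the mitochondrial HSP70, 0 were called in either line (medians 0.12 and 0.15), beside the same shares of all tested genes. HSPD1, the mitochondrial HSP60, and HSPE1, its partner, had the largest values in MM1S cells, 1.33 (FDR = 0.0862) and 1.08 (FDR = 0.118). Between Fer-1 + RSL3 and RSL3 alone 0 genes of these lists were called in either line, as were 0% of all tested genes. With Fer-1 + RSL3 against untreated cells, 4 J-domain genes were called higher in MM1R and 3 in MM1S, with BAG3 in both. The shares of all tested genes called higher there were 1.75% and 0.938%.

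**Figure D5:**
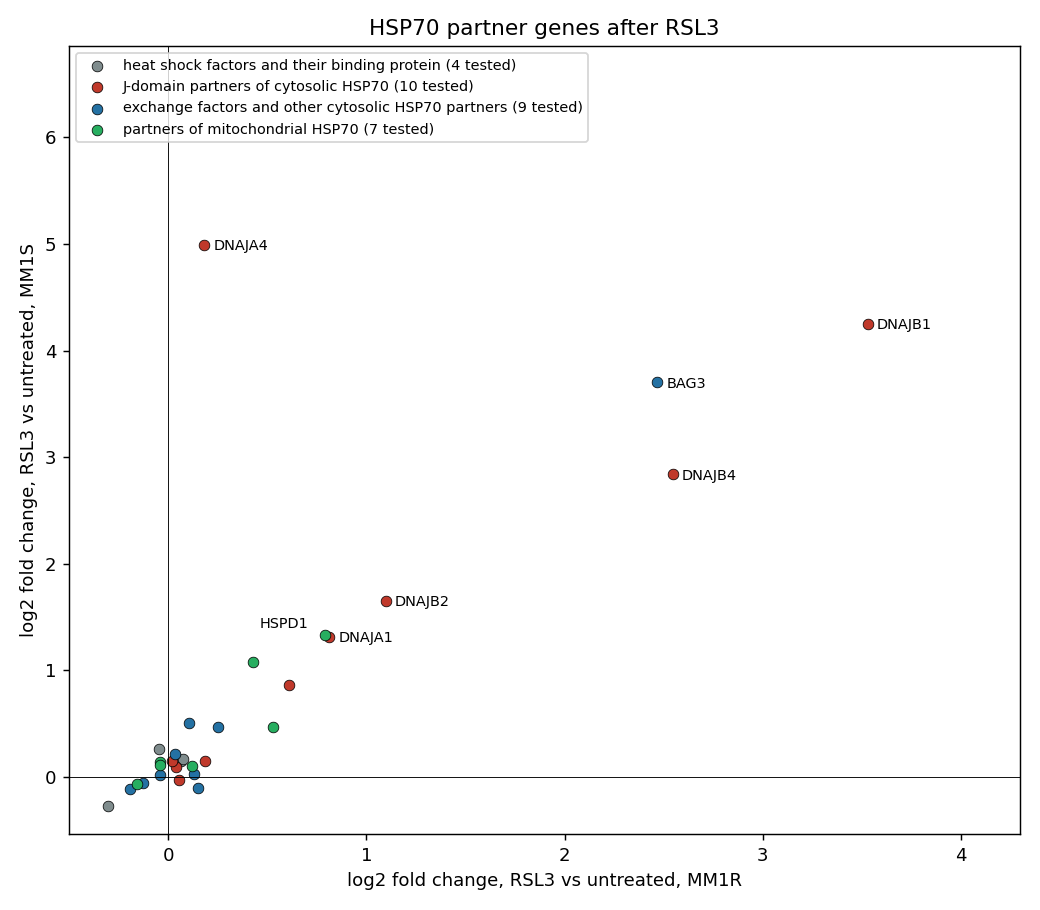
Log2 fold change after RSL3 against untreated cells in MM1R (x axis) and MM1S (y axis) for the tested genes of 4 partner lists, with the genes called in at least 1 line and DNAJA4 and HSPD1 named. DNAJB1, DNAJB4 and BAG3 lie far from 0 on both axes, and the heat shock factors lie between -0.30 and 0.26 on both.

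Among the other HSP70 and HSP110 genes of the table, HSPA5 (BiP), the HSP70 of the endoplasmic reticulum, was at 1227 ± 48.4 CPM in untreated and 1645 ± 91.1 CPM in RSL3-treated MM1R cells, and the MM1S means were 1077 ± 51.6 and 1593 ± 304 CPM. Its log2 fold change was 0.42 (FDR = 0.0547) and 0.57 (FDR = 0.015), under the fold limit. HYOU1, the HSP110 of the endoplasmic reticulum, had 0.28 and 0.38 (FDR = 0.352 and 0.179). HSPA2, another HSP70 best known from the testis, had 1.68 (FDR = 0.179) and 0.42 (FDR = 0.665) after RSL3. It was called lower in untreated MM1R than in untreated MM1S cells (-2.77, FDR = 0.00803), and higher with Fer-1 + RSL3 than without treatment in MM1R cells (2.19, FDR = 0.0394), a call that was lost without Fer-1 + RSL3 replicate 2, the library with MM1S-like expression (1.95, FDR = 0.13), and just lost without RSL3 replicate 3 (FDR = 0.0501). HSPA2 was hardly counted, at 0 to 0.174 CPM in untreated MM1R and 0.574 to 0.903 CPM in untreated MM1S cells. With Fer-1 + RSL3 it was at 0.328 to 0.676 CPM in MM1R cells, so both folds rest on very few counts. Of the 8 genes on this list, 5 were tested, and the 1 called after RSL3 was HSPA7, in MM1S cells (FDR = 0.0256). Of all tested genes, 1.35% were called higher there.

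The genes whose log2 CPM ran most closely with HSPA6 over the 18 libraries were DNAJB1 (Pearson r = 0.989), the heme oxygenase gene HMOX1 (0.985), DEDD2 (0.978), ARRDC3 (0.975) and HSPA7 (0.975). For HSPA8 they were DNAJB1 (0.982), HSP90AA1, the inducible cytosolic HSP90 (0.976), HMOX1 (0.969), BAG3 (0.966) and ZNF184 (0.959). Within the family, HSPA6 had an r of 0.99 with the summed HSPA1B rows, 0.97 with HSPA8, 0.92 with HSPH1, 0.87 with HSPA13, 0.72 with HSPA4, 0.64 with HSPA4L, 0.57 with HSPA9 and -0.14 with HSPA14. These are descriptions, since the libraries fall into untreated and treated groups and share passages.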

How the data were processed

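RNA of 18 cultures was sequenced as paired reads on a BGI instrument. Per the labels and the study's methods, the authors checked reads with FastQC 0.11.5 and aligned them to hg19 with STAR 2.7.3a. The counting tool, annotation and use of strand are not given in the sources used here. The authors deposited raw read counts per gene row (43735 rows), which were used for all main results, and a second table (29553 rows) of normalized signal, in which the authors had divided each count by a DESeq2-like size factor per library (0.834 to 1.08). Totals were 17635438 to 19368343 counts per library, and TMM factors 0.864 to 1.06.

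Genes passing the edgeR filter at a minimum count of 10 were fitted in R 4.3.3 with the quasi-likelihood test of edgeR 4.0.16, with 1 coefficient for each of the 6 groups, 12 residual degrees of freedom and p-values adjusted by Benjamini-Hochberg over 14281 genes. Each SE is the size of the log2 fold change divided by the square root of its F statistic, and the intervals, at 95% and unadjusted, were built from it. Both are approximate and can fail where the change is near 0. For HSPA2 between Fer-1 + RSL3 and RSL3, the SE was 0.52 in MM1R, 0.45 in MM1S and 0.14 in the average, whose log2 fold change was 0.00. The fit was tested on simulated data with known changes. CPM used TMM library sizes, and log2 CPM a prior count of 2. Alternatives were RLE or upper-quartile scaling, no filter or a minimum count of 50, DESeq2 1.42.0, limma 3.58.1 on log2 of the authors' value plus 1, the FDR alone, the compared groups alone, a block for passage, and each library left out. The summing of the 5 HSPA1B rows, and the refits of that sum without single libraries, were added after the data were seen.

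Replicate numbers pair libraries of the same passage. Deviations from the group means correlated with a median r of 0.25 (0.0338 to 0.516) over 9 pairs in MM1R and 0.416 (0.216 to 0.681) over 9 pairs in MM1S.

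The members and gene lists were chosen with earlier results of these data known. All 9 members are named, with, from each partner list, genes called in both lines after RSL3 and the 2 largest of the rest, and the 5 genes closest to HSPA6 and to HSPA8 by Pearson correlation. DNAJA1, HSPA5, HYOU1, HSF1 and HSBP1 are outside that rule and were named after their values were seen. Gene positions are from GENCODE lifted to hg19, and promoters from RefSeq.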

Additional observations from a re-analysis of the deposited data

How the results depend on the processing

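The 63 log2 fold changes given for members were recomputed under 27 alternatives each (1701 in all). In 1606 the direction and side of the threshold held, 43 fell short of the threshold, 9 newly passed it and 43 changed sign.

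The number of members called after RSL3 in MM1S cells was 4, and 0 when the compared groups were fitted alone. Leaving out single libraries gave 1 to 4 called members in MM1R and 1 to 4 in MM1S after RSL3, and 3 to 5 for Fer-1 + RSL3 against untreated MM1R cells. With no low-count filter, 1 member (HSPA6) was called in the difference between lines and 1 (HSPA6) between Fer-1 + RSL3 and RSL3 in MM1S. With the FDR alone, 1 member (HSPA13) differed between the untreated lines. The shares of all genes called under these alternatives are not given here, so the counts cannot be read as results about the members. The cause of these changes was not tested.

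With the replicate block for passage, 4 members were called after RSL3 in MM1R (HSPH1 at 1.55) and 4 for Fer-1 + RSL3 against untreated MM1R cells (HSPA4L at 0.97). The block turned the sign of HSPA6 between Fer-1 + RSL3 and RSL3, to 0.29 in MM1R and 0.93 in MM1S, and of the small values of HSPA9 in the same comparison in MM1R (0.00081) and HSPA14 after RSL3 in MM1R (-0.0019). Between the untreated lines, where the blocked fit by its construction compares only P7 with P23, it gave 0.45 for HSPA8. It changed no other call of a member.

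In limma on the authors' values, HSPA6 between Fer-1 + RSL3 and RSL3 was 0.40 in MM1R and 1.10 in MM1S, HSPA8 and HSPH1 in MM1S were 0.022 and 0.097, and HSPA14 after RSL3 in MM1R was -0.010. Upper-quartile scaling gave 0.0034 for HSPA9 between Fer-1 + RSL3 and RSL3 in MM1R.

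Leaving out single libraries changed signs between Fer-1 + RSL3 and RSL3. The range of log2 fold changes was -0.999 to 1.53 for HSPA6 in MM1R and -1.78 to 3.26 in MM1S, -0.25 to 0.37 for HSPA8 in MM1S, -0.78 to 0.95 for HSPH1 in MM1S, -0.11 to 0.44 for HSPA4 in MM1S, -0.085 to 0.096 for HSPA9 in MM1R, and -0.030 to 0.098 in MM1R and -0.16 to 0.056 in MM1S for HSPA13. HSPA14 ranged from -0.077 to 0.15 in MM1R, -0.15 to 0.072 in MM1S and -0.071 to 0.044 on average after RSL3, from -0.17 to 0.051 and -0.13 to 0.039 between Fer-1 + RSL3 and RSL3, and from -0.085 to 0.057 and -0.19 to 0.026 between Fer-1 + RSL3 and untreated cells, in MM1R and MM1S. The difference between lines in the response to RSL3 ranged from -3.97 to 2.38 for HSPA6, -0.61 to 0.21 for HSPA8 and -1.29 to 0.61 for HSPH1, and HSPA8 between the untreated lines from -0.12 to 0.093.

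With 3 libraries per group and a wide spread among the RSL3 libraries, the effect of Fer-1 on HSPA6 was not resolved in either direction. The plain HSPA1B row stayed at 0 to 11 counts and held 0.113% of all HSPA1B counts, since nearly all reads lay in other rows of that name. Its low count is therefore no measure of depth. HSPA6 had 18 to 33 counts in the untreated libraries, so the size of its rise rests on small counts. The other members tested had 976 or more counts in every library.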
